A study of Ovis aries with 40 samples.

Results

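The 10 genes described here encode the muscle forms of the enzymes that carry glucose 6-phosphate to lactate: GPI, PFKM, ALDOA, TPI1, GAPDH, PGK1, PGAM2, ENO3, PKM and LDHA. They were taken from the array by gene symbol. All 10 were measured, by 17 probe sets of the 24128 on the array, and all 10 were among the 6360 detected genes of the 9155 genes with a symbol. Where a gene had several probe sets, the one with the highest mean signal stood for it. The samples were longissimus dorsi muscle, the large muscle along the loin, from 40 Poll Dorset sheep at 78 weeks of age. The animals were progeny of 6 industry sires that were extreme in their estimated breeding value for eye muscle depth, a measure of muscling. The high muscling group held 19 animals, made up of 8 progeny of sire 11, 7 progeny of sire 2 and 4 progeny of sire 7. The low muscling group held 21 animals, made up of 8 progeny of sire 5, 8 progeny of sire 16 and 5 progeny of sire 17. The labels name no treatment of the animals. No sire had progeny in both groups, so a difference between the groups rests on 3 sires against 3 and cannot be told apart from other differences between those sires.

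Glycolysis splits glucose into pyruvate and yields ATP without oxygen. In muscle the substrate comes largely from stored glycogen, and LDHA turns the pyruvate into lactate during intense work. Fast-twitch fibres rely on this pathway more than slow-twitch fibres do, and several of its steps use a muscle isozyme encoded by a gene of its own. PFKM catalyses the committed step of the pathway, whereas GPI, ALDOA, TPI1, PGAM2 and ENO3 catalyse reversible conversions. GAPDH captures energy by oxidation, and PGK1 and PKM transfer phosphate to ADP.

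Signals are MAS5 intensities on a linear scale, in which the trimmed mean of each array is 200, and the number of arrays limits the precision. Sheep RNA was hybridised to bovine probes, so the signal of 1 probe set was not set against that of another. The correlation between arrays over the detected genes ranged from 0.902 to 0.963. Of the markers of muscle fibres, 7 of 7 measured were detected, as were 7 of 7 fast fibre markers and 8 of 8 slow fibre markers. In whole muscle, fewer cells of a type and less RNA per cell cannot be told apart.

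GPI (bovine gene 280808), which interconverts glucose 6-phosphate and fructose 6-phosphate, had signals from 8190 to 16454 in high muscling with a median of 10754, and from 7311 to 16437 in low muscling with a median of 9572. The ranges overlapped over nearly their whole length. Family means were 13024 ± 2043 (SD, n = 4) for sire 7 and 12705 ± 2754 (n = 7) for sire 2, but 9904 ± 786 (n = 8) for sire 11 of the same muscling group. PFKM (gene 506544), the muscle phosphofructokinase, ranged from 9729 to 13571 in high muscling, with a median of 11882. In low muscling it ranged from 6942 to 13127, with a median of 10093. Its low values came mainly from the progeny of sire 5, whose mean was 9271 ± 1100 (n = 8). The means of the other 5 families lay between 11055 and 12209.

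ALDOA (gene 509566), the aldolase of muscle, varied least of the 10 genes (SD of log2 signal 0.12, n = 40). Its signals ran from 19296 to 27330 in high muscling, with a median of 22325, and from 19017 to 26093 in low muscling, with a median of 22234. TPI1 (gene 281543), which interconverts the triose phosphates, ran from 7721 to 17091 in high muscling, with a median of 11428. In low muscling it ran from 6802 to 16072, with a median of 9850. Both the highest and several of the lowest TPI1 signals of high muscling were in 1 family, that of sire 2 (12025 ± 3374, n = 7), so the spread within a family was as wide as that within a group.

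GAPDH (gene 281181), the dehydrogenase that opens the energy-yielding phase, had signals from 25726 to 33569 in high muscling with a median of 30426. In low muscling they ran from 23951 to 33668, with a median of 26702. Its highest signal was in low muscling, in progeny 32 of sire 5. PGK1 (gene 507476), the phosphoglycerate kinase of somatic cells, varied most (SD of log2 signal 0.62, n = 40). The median of this SD was 0.18 over the 10 genes and 0.38 over all detected genes. The detected genes were not matched to the enzymes for signal level, so these medians are not on equal terms. The signal of PGK1 ran from 3210 to 15252 in high muscling and from 2927 to 14692 in low muscling, with medians of 8583 and 6716. The highest animal was thus 5.21-fold above the lowest, and nearly the whole range recurred within sire 2 and within sire 5.

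PGAM2 (gene 515067), the muscle phosphoglycerate mutase, ran from 17196 to 26331 in high muscling, with a median of 19826, and from 15353 to 23537 in low muscling, with a median of 19099. ENO3 (gene 540303), the muscle enolase, ran from 16773 to 25934 and from 15232 to 23171, with medians of 19438 and 19098. In both genes the progeny of sire 2 had the highest family mean and those of sire 17 the lowest. PKM (gene 512571), the pyruvate kinase of muscle, ran from 1111 to 3257 in high muscling, with a median of 1795. In low muscling it ran from 917 to 2913, with a median of 1387. The family mean of PKM was highest for sire 7 (2463 ± 613, n = 4), against 1471 ± 330 (n = 8) for sire 11 in the same group. The highest single signal was that of progeny 69 of sire 7 (3257), and the next was that of progeny 79 of sire 17 in low muscling (2913). LDHA (gene 281274), the lactate dehydrogenase subunit of fast muscle, ran from 16089 to 23160 in high muscling and from 14401 to 22193 in low muscling, with medians of 19546 and 18185. The median was higher in high muscling for each of the 10 genes, and the ranges of the groups overlapped for each.

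**Figure D1:**
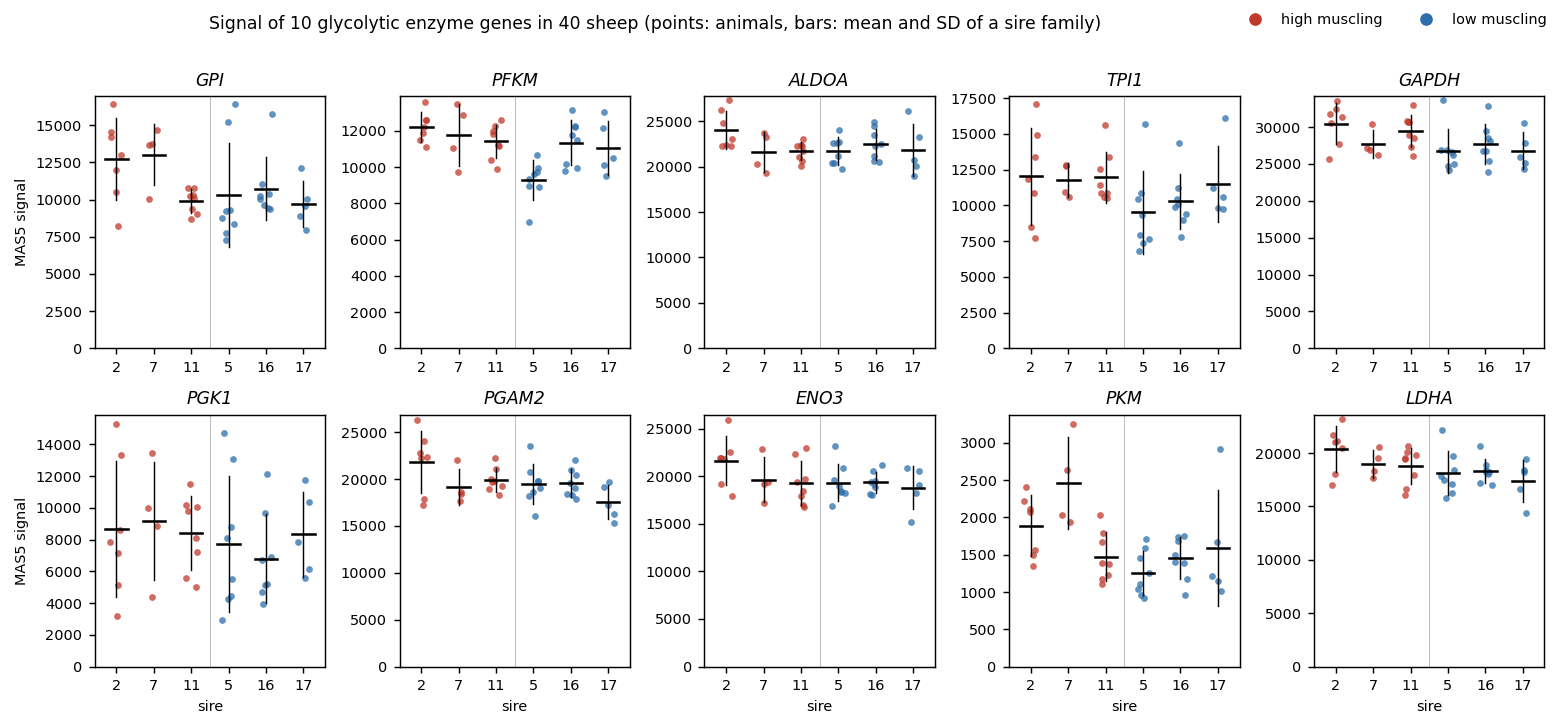
MAS5 signal (vertical axis, linear, from 0) of the 10 glycolytic enzyme genes in each of the 40 animals, by sire (horizontal axis). Points are animals, red for high and blue for low muscling, and black bars give the mean and SD of a family. The groups overlap in every panel, the PFKM points of sire 5 sit low (mean 9271), and PGK1 spreads from 2927 to 15252.

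No gene of the 10 was called between high and low muscling at an adjusted p under 0.05 (limma with sire as a random block, Benjamini-Hochberg over the 6360 detected genes). Over all detected genes, 2.28% were called higher and 5.50% lower in high muscling, and 7.78% in either direction. At an unadjusted p under 0.05 there were 2 of the 10, PFKM and PKM, against 21.8% of all genes. PKM had the largest difference, 0.41 higher in high muscling on the log2 scale (SE 0.172, 95% interval 0.06 to 0.75, adjusted p = 0.147). PFKM was 0.17 higher (SE 0.082, 0.01 to 0.34, adjusted p = 0.2001). TPI1 and PGK1 were each 0.22 higher, with intervals of -0.06 to 0.50 and -0.32 to 0.77. GPI was 0.20 higher (-0.07 to 0.47), GAPDH 0.12 (-0.02 to 0.25), LDHA 0.11 (-0.03 to 0.25) and PGAM2 0.10 (-0.05 to 0.26). The smallest differences were those of ENO3, 0.07 (-0.08 to 0.22), and ALDOA, 0.03 (-0.10 to 0.16), and adjusted p for these 8 genes lay between 0.319 and 0.834.

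All 10 differences were above 0, as were 44.2% of those over all genes. The median difference of the 10 was 0.15, and that of all detected genes was -0.04. The genes varied together from animal to animal, so the 10 signs are not 10 separate observations. The mean of log2 signal was higher in all 3 high muscling families than in all 3 low muscling families for PFKM, TPI1, GAPDH and LDHA. Such an order was found in 4 of the 10 genes and in 7.85% of all genes, with no margin required. The lowest high muscling mean and the highest low muscling mean were 14.7554 and 14.7521 for GAPDH and 13.4751 and 13.4615 for PFKM. They were 14.1901 and 14.1599 for LDHA and 13.5032 and 13.4596 for TPI1. None of the further probe sets of PFKM and LDHA, described below, showed this order. The calls depended on the setting for the pair with the smallest p. PFKM was called after quantile normalization (0.27, adjusted p = 0.041), and PKM with the family of sire 11 left out (0.60, adjusted p = 0.018) or that of sire 17 (0.44, adjusted p = 0.047). The difference of ALDOA turned to -0.02 without the progeny of sire 2.

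**Figure D2:**
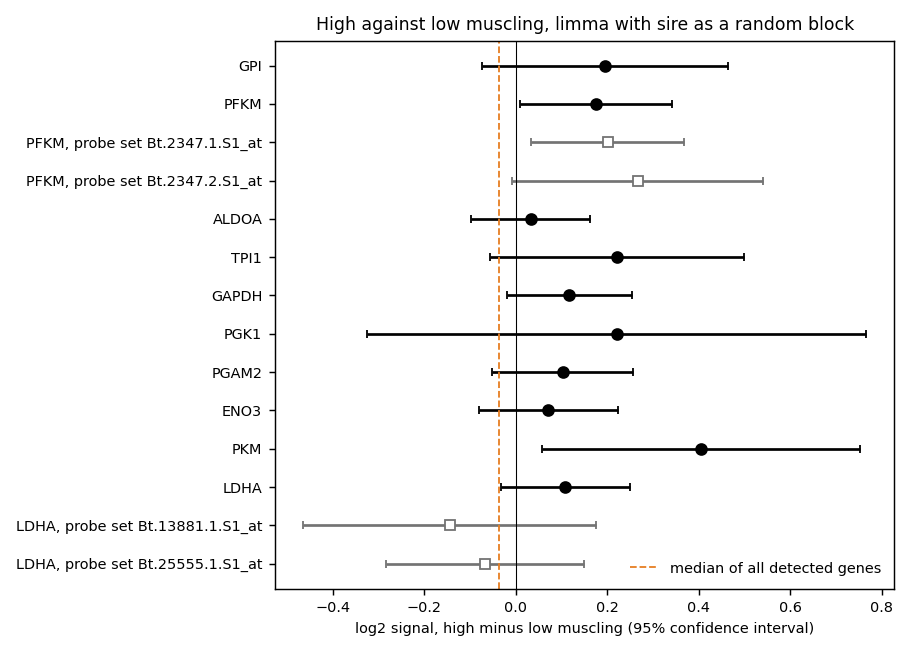
Difference in log2 signal between high and low muscling (horizontal axis, high minus low) with its 95% confidence interval for each gene (filled circles) and for further probe sets of PFKM and LDHA (open squares, with the array's names). The dashed line is the median of all detected genes, -0.04. All filled circles lie above 0, and the intervals of PFKM and PKM alone among them leave out 0.

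Differences between sires of the same muscling group were tested next, since they show what family alone can add. None of the 10 genes was called (limma F test on 4 contrasts, adjusted p under 0.05), against 22.0% of all genes, and PFKM and PKM were the 2 with an unadjusted p under 0.05, against 35.6%. Adjusted p was 0.0651 for PFKM and 0.0705 for PKM, and at least 0.267 for the other 8. PFKM was called without the progeny of sire 7, PKM without those of sire 17, and both after quantile normalization. In the order of family means of log2 signal, sire 2 was highest for 6 genes (PFKM, ALDOA, GAPDH, PGAM2, ENO3 and LDHA), sire 7 for 3 (GPI, PGK1 and PKM) and sire 11 for TPI1. Sire 5 was lowest for PFKM, TPI1, GAPDH and PKM, and sire 17 for GPI, PGAM2, ENO3 and LDHA. Of the 50 steps between neighbours in these orders, 48 were no larger than the SD of log2 signal within families. The other 2 were the step down to sire 5 for PFKM (0.25) and the step from sire 7 to sire 2 for PKM (0.38). A step lies between means of several animals and that SD is of single animals, so this count is no test of the families.

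Single animals were extreme for several enzymes at once. Progeny 46 of sire 2 had the highest signal of all 40 animals for GPI, TPI1, PGK1, PGAM2, ENO3 and LDHA, and its mean rank over the 10 genes was 3.4, where rank 1 is the highest. Progeny 85 of sire 17 had the lowest signal for ALDOA, PGAM2, ENO3 and LDHA. Progeny 63 of sire 5 was lowest for no gene but had the lowest mean rank, 36.7, and was among the lowest 5 animals for 8 genes. Progeny 32, of the same sire, had a mean rank of 6.9, the next highest after progeny 46. The arrays of these animals differed in brightness too. The 99th percentile of the array's log2 signals was 13.09 for progeny 32, 12.92 for progeny 46, 12.84 for progeny 63 and 12.83 for progeny 85. The mean log2 signal of the added hybridisation spikes was 11.37, 11.35, 11.13 and 11.20 in the same order. The part of array brightness in these ranks was not tested.

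Further probe sets bore on PFKM, LDHA and GAPDH. The 3 PFKM probe sets all had a higher mean in high muscling, by 0.17, 0.20 and 0.27 on the log2 scale. The main one correlated with the others at r = 0.92 and r = 0.70 over the 40 animals. The probe set with the lower correlation differed between sires of a muscling group (limma F test over 12008 detected probe sets, adjusted p = 0.000598), a call made for 21.4% of those probe sets. Its signal was 4343 ± 369 (n = 8) in the progeny of sire 11, with no animal below 3719, and at most 3883 in the other high muscling families. In low muscling the family of sire 17 was highest (3632 ± 877, n = 5) and reached 4512, within the range of sire 11. The family of sire 5 was lowest here also (2372 ± 422, n = 8). The probe sets of PFKM therefore ordered the families differently, apart from sire 5, which was lowest in all 3. For LDHA, neither of the other probe sets followed the main one (r = 0.13 and -0.28). They had mean signals of 838 ± 141.3 and 217 ± 61.1 (n = 40), and lay 0.07 and 0.14 lower in high muscling with intervals that included 0. The LDHA values above rest on the main probe set. The 3 control probe sets for GAPDH correlated with its main probe set at r = 0.83 to 0.89. The platform annotation gives all of them the same source sequence, so they are not independent measures of GAPDH.

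The transcripts varied together from animal to animal. Each of the 45 pairs among the 10 genes had a Pearson correlation above 0, with a median of 0.521 and a range of 0.04 to 0.89, whereas the median over all pairs of detected genes was 0.01. A correlation of at least 0.5 was found in 51.1% of the pairs and in 1.81% of all pairs of genes. The genes of all pairs were not matched to the enzymes for signal level. Correlations were computed between each enzyme and all other detected genes, with 100000 two-sided permutations of the animals and Benjamini-Hochberg adjustment over 6359 genes. By this test 24 of the 45 pairs were called, 22 of them by Spearman correlation also, against a positive call for 2.97% of all gene comparisons. These permutations treat the progeny of 1 sire as independent. After subtraction of family means, with animals permuted within sire, 17 pairs were called, against 2.82% of gene comparisons, and the median was 0.504.

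ENO3 and LDHA, the enolase and the lactate dehydrogenase, were the closest pair (r = 0.886, rho = 0.856, both with p = 1e-05, the smallest that the permutations can give, adjusted p = 0.00172 and 0.00205). Without the 2 animals farthest from the median r was 0.842, and with sire means removed 0.877. ENO3 and PGAM2, which catalyse consecutive steps, followed (r = 0.861, rho = 0.806), then PGAM2 and LDHA (r = 0.844, rho = 0.801) and GAPDH and PGAM2 (r = 0.819, rho = 0.807). GPI and TPI1, of the upper part of the pathway, correlated at r = 0.731 (rho = 0.709) and with LDHA at 0.783 and 0.694. LDHA had the highest mean correlation with the other 9 enzymes (0.641). With adjustment over the comparisons of LDHA alone it was called with 8 of them, where 4.62% of all genes had a positive call with LDHA. A pair, however, was called on the larger adjusted p of its genes. By that rule LDHA was called with GPI, TPI1, GAPDH, PGAM2, ENO3 and PKM. It was not called with PGK1 (permutation test, adjusted p = 0.0837), ALDOA (0.0980) or PFKM (0.119).

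PFKM, PKM, ALDOA and PGK1 shared less of this variation. PFKM had the lowest mean correlation (0.306) and was called with 1 enzyme, PKM (r = 0.573, rho = 0.553, adjusted p = 0.0162 and 0.0442), with a background of 1.79% of genes. With sire means removed that r was 0.462 and the pair was no longer called, in a test where 0.0315% of all genes had a positive call with PFKM. PFKM and PGK1 had the lowest correlation of all pairs (r = 0.04, rho = 0.04). PKM and ALDOA, at r = 0.13, fell to -0.04 without the 2 farthest animals. PGK1 was called with GPI (r = 0.582) and TPI1 (r = 0.561), with a background of 0.550%. ALDOA was called with GAPDH (r = 0.658), ENO3 (r = 0.605) and PGAM2 (r = 0.574), with a background of 0.472%. With family means subtracted, the calls of PGK1 with TPI1 (adjusted p = 0.0900) and of ALDOA with ENO3 (0.105) and PGAM2 (0.142) were lost. PKM was called with 4 enzymes (3.19%), whereas TPI1 and GPI were each called with 7 (5.76% and 7.58%). Once family means were subtracted PKM was called with none of the 4 (adjusted p from 0.0991 to 0.413). In that test only 0.0786% of all genes had a positive call with PKM, and its r with TPI1 was 0.551 in place of 0.569. Consecutive steps were thus not always the closest pairs, since PGK1 with GAPDH (r = 0.484, adjusted p = 0.0697) and PGK1 with PGAM2 (r = 0.393, adjusted p = 0.160) were not called.

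**Figure D3:**
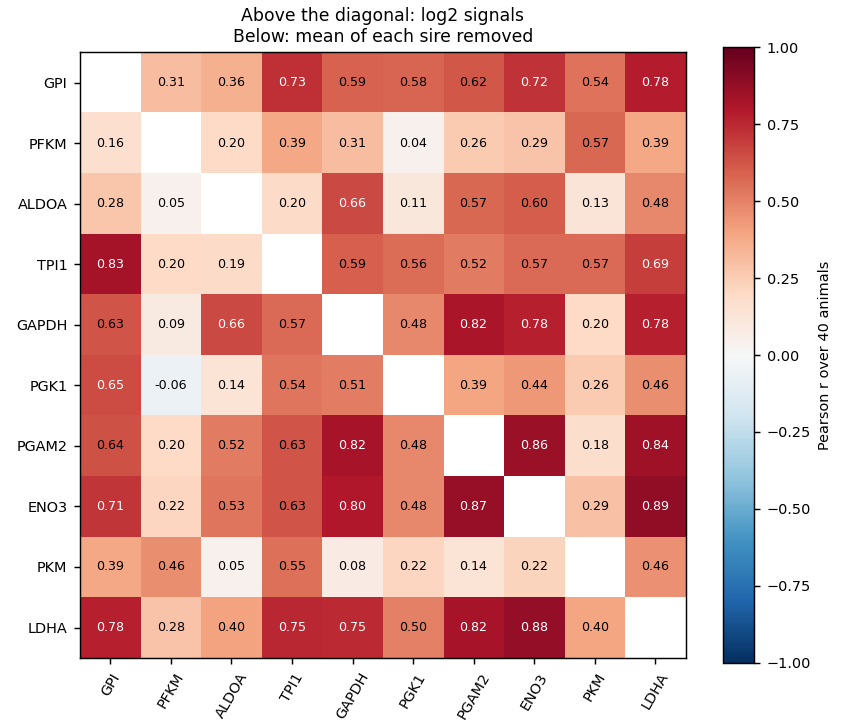
Pearson correlation of log2 signal over the 40 animals between the 10 enzymes, above the diagonal for the signals and below it with the mean of each sire removed; colour runs from blue (-1) to red (1). ENO3, LDHA, PGAM2 and GAPDH form the reddest block, up to 0.89, and the row of PFKM is the palest.

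Of 12 genes for other isozymes of the same steps 9 were measured and 6 detected. Of their 60 correlations with the enzymes 1 was called positive (ENO1 with GPI) and 5 negative, where 2.97% and 4.05% of all gene comparisons were. None was called between high and low muscling. The smallest p were those of PGAM1, the phosphoglycerate mutase of other tissues (-0.32, adjusted p = 0.218), and PFKP, the platelet phosphofructokinase (-0.32, adjusted p = 0.317). ENO1, the widely expressed enolase, was called between sires (limma, adjusted p = 0.0254), with mean signals of 655 ± 49.0 (n = 8) for sire 11 of high and 700.4 ± 55.1 (n = 5) for sire 17 of low muscling, and family means of 857 to 886 for the other 4 sires. PFKM and PFKP correlated negatively (r = -0.489, rho = -0.473, adjusted p = 0.0364 and 0.0706, r = -0.455 without the 2 farthest animals and -0.408 with sire means removed). The detected isozyme pairs ENO3 and ENO1 (r = 0.397, adjusted p = 0.104), PKM and PKLR (0.270), LDHA and LDHB (0.191), PGAM2 and PGAM1 (-0.139) and PFKM and PFKL (-0.139) were not called. PFKP also went against TPI1 (r = -0.629), PKM (-0.550) and LDHA (-0.499), and with sire means removed the calls with PFKM and PKM were lost. In that test 1 of 6359 genes had a negative call with PFKM and 1 with PKM. Its signal was low, 115 ± 35.5 (n = 40).

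Of 27 genes for the entry, exit and control of glycolysis, 23 were measured and 22 detected. Of the 22, 2 were called higher in high muscling and none lower (limma), against 2.28% and 5.50% of all genes, and 4 had an unadjusted p under 0.05. PFKFB3, a bifunctional enzyme that makes the activator of phosphofructokinase, had signals from 357 to 3398 in high muscling with a median of 1207, and from 151 to 2232 in low muscling with a median of 315. The difference was 1.41 on the log2 scale (SE 0.437, adjusted p = 0.0398), and the groups overlapped. The call was lost in 9 of 14 alternatives, among them each of the 6 with a family left out (adjusted p = 0.0557 to 0.161) and the fit with the spikes regressed out (0.79, adjusted p = 0.542). PDHA1, a subunit of the pyruvate dehydrogenase complex that leads pyruvate into the mitochondrion's oxidative metabolism, ranged from 7177 to 10344 with a median of 8748 in high muscling. In low muscling it ranged from 5450 to 9075 with a median of 7051, a difference of 0.32 (SE 0.082, adjusted p = 0.0124). This call was lost in 7 of 14 alternatives, among them those without the family of sire 2 (0.0757), 5 (0.120), 7 (0.0518) or 16 (0.198) and with the spikes regressed out (0.18, adjusted p = 0.428). Between sires of a muscling group 4 of the 22 were called (PFKFB4, GPD1, MPC1 and PDK2), where 22.0% of all genes were. The signal of MPC1, a subunit of the mitochondrial pyruvate carrier, was 1192 ± 131 (n = 8) for sire 11 and 1187 ± 228 (n = 5) for sire 17, with means of 1467 to 1813 in the other 4 families. Among 7 detected regulators of glycolytic genes 1 was called higher in high muscling, the muscle transcription factor MEF2A (0.45, SE 0.109, adjusted p = 0.00790). Its call was lost in 5 of 14 alternatives, among them those without the family of sire 5 (adjusted p = 0.211) or 16 (0.145) and with the spikes regressed out (0.31, adjusted p = 0.374). Sire means as samples and the mean over all probe sets also gave no call for PFKFB3, PDHA1 or MEF2A. MEF2A and its relative MEF2C were also called between sires, with MEF2C at 2354 ± 397 (n = 8) for sire 11 and 2268 ± 1563 (n = 5) for sire 17, and family means of 663 to 1114 for the other 4 sires. HIF1A, the hypoxia-inducible factor, differed by -0.10 (-0.34 to 0.14, adjusted p = 0.698).

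Several of these genes moved with the enzymes over the animals. Of the 220 correlations of the entry, exit and control genes with the enzymes 25 were called positive and 6 negative. For the regulators 3 and 4 of 70 were. The shares of all gene comparisons were 2.97% and 4.05%. PDHA1 correlated positively with 7 of the 10 by the call (GPI, PFKM, TPI1, GAPDH, ENO3, PKM and LDHA), most closely with PKM (r = 0.660, rho = 0.639), and with GPI, TPI1 and LDHA alone once sire means were removed. After that removal 0.0315% and 0.0786% of all genes had a positive call with PFKM and PKM. GPD1, which makes glycerol 3-phosphate from a glycolytic intermediate, was called with GPI (r = 0.806, rho = 0.725), ENO3, LDHA and TPI1. It also differed between sires of a muscling group (limma F test, adjusted p = 0.0246). PDK4, a kinase that inhibits pyruvate dehydrogenase, was chosen after its values were seen. It went against GPI (r = -0.690, rho = -0.659, adjusted p = 0.000485 and 0.000739), with r = -0.649 without the 2 farthest animals and -0.637 with sire means removed. PDK4 signals ran from 97.6 to 15950 and the low ones were few, so that the points lie on a bend and not along a line. MEF2A was called with TPI1 alone of the 10 (r = 0.507, rho = 0.569), with r = 0.308 and no call once sire means were removed.

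The genes most like the 10 enzymes, by mean correlation with them over the 40 animals among all other detected genes, were PGM1, PYGM, CKM, ACTN3 and ATP2A1. PGM1, the phosphoglucomutase that joins glycogen breakdown to glycolysis, had a mean r of 0.621 (lowest 0.31 with ALDOA, highest 0.82 with GPI). PYGM, the muscle glycogen phosphorylase, also had 0.621 (0.35 to 0.80). CKM, the muscle creatine kinase, had 0.601, from 0.21 with PKM to 0.89 with GAPDH. ACTN3, the actinin of fast fibres, had 0.595, and ATP2A1, the calcium pump of fast fibres, 0.589. With sire means removed PGM1 still ranked 1 (mean r 0.602) and ATP2A1 ranked 3, but PYGM ranked 5, CKM 9 and ACTN3 10. All 7 detected fast fibre markers were called positively with GPI, GAPDH, PGAM2, ENO3 and LDHA, where the share of all genes was 7.58%, 1.29%, 1.20%, 3.29% and 4.62%. With PFKM and PGK1 1 of the 7 was called, against 1.79% and 0.550%. The slow fibre markers were not their mirror image: 5 of 8 were called positively with ENO3 and 4 of 8 with GAPDH. Negative calls were made for 1 of 8, with PFKM, TPI1 and PKM, in each case TPM3, a slow-fibre tropomyosin that other cells also make.

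**Figure D4:**
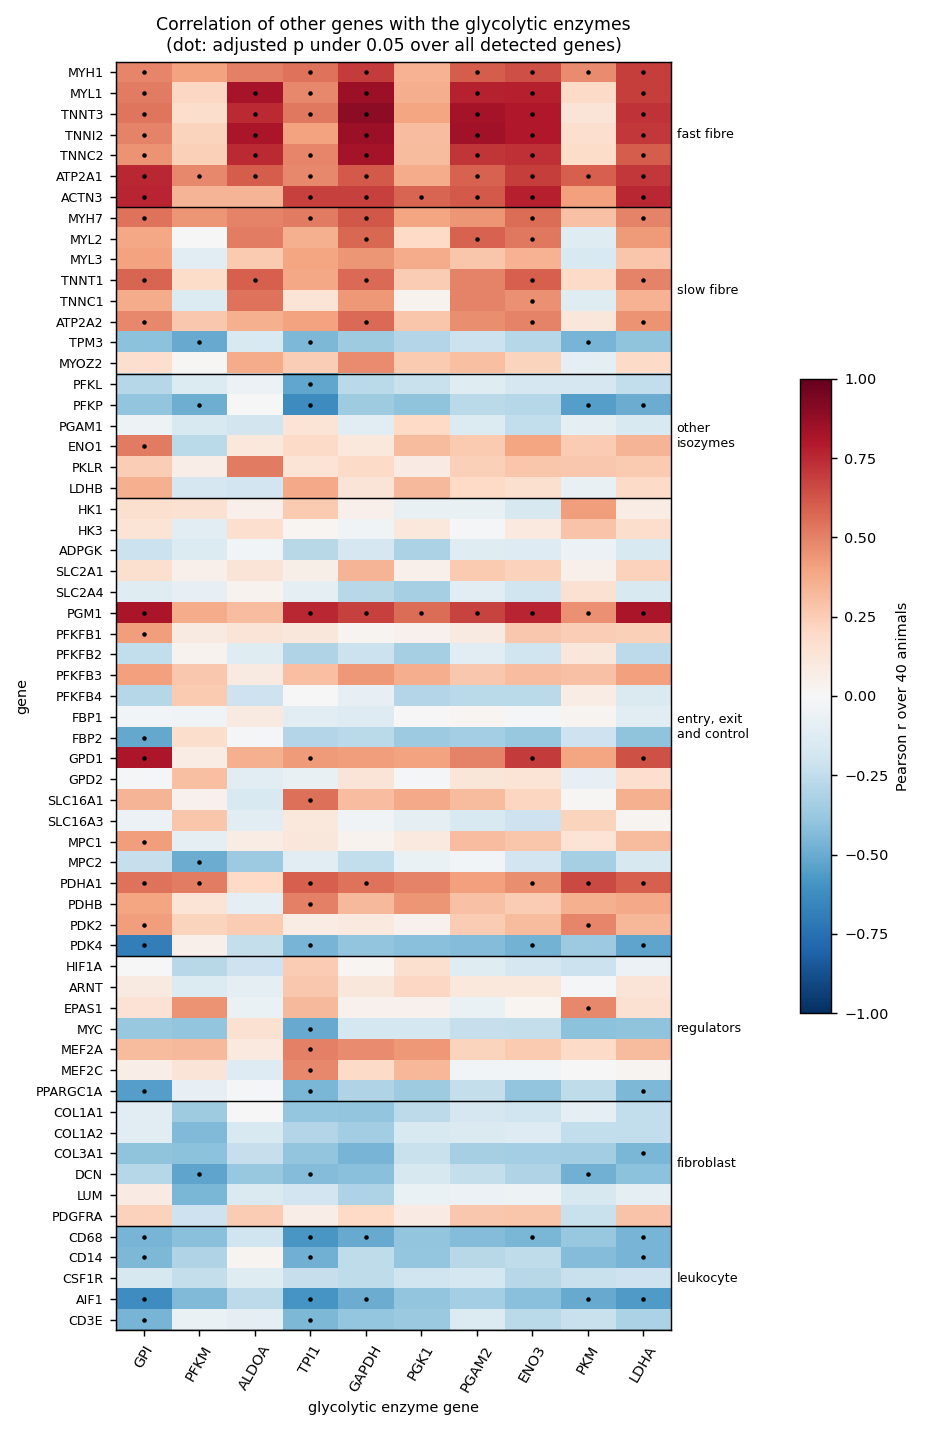
Pearson correlation of log2 signal over the 40 animals between the 10 enzymes (columns) and detected genes of the lists described in the text (rows); a dot marks an adjusted p under 0.05 over all detected genes. The fast fibre rows and PGM1 (up to 0.82) are red in most columns, PDK4 is blue for GPI (-0.69), and the PFKM and PGK1 columns carry few dots in the fast fibre block.

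Measures of the arrays moved with some of the enzymes. The mean log2 signal of the hybridisation spikes, bacterial transcripts added in fixed amounts, correlated positively with 5 of the 10 (ALDOA, GAPDH, PGAM2, ENO3 and LDHA), against 0.755% of all genes, and 8 of the 10 had an unadjusted p under 0.05 (permutation test). With sire means removed 3 were called, and ENO3 (adjusted p = 0.0715) and LDHA (0.138) were not. For the array measures, shares of all genes were not counted at an unadjusted p or with sire means removed. Those counts of enzymes therefore have no background to be read against. For GAPDH r was 0.703 and rho 0.726 (adjusted p = 0.00795 and 0.00424), with r = 0.700 without the 2 farthest animals and 0.700 with sire means removed. The spikes averaged 11.33 in high and 11.24 in low muscling. With the spikes regressed out the median r of the 45 pairs was 0.425 in place of 0.521. In that fit the differences of ALDOA, PGK1 and ENO3 lay at -0.03, -0.03 and -0.01, and 0 of the 6360 detected genes were called between the groups (limma), with 644 at an unadjusted p under 0.05. The ratio of 3′ to 5′ control probe sets, a sign of RNA integrity, was called with none of the 10, for GAPDH (r from -0.42 to 0.18) or for actin (-0.23 to 0.22). Over all genes 5.20% and 0.00% were called with these ratios. At an unadjusted p under 0.05 the permutation test gave 1 of the 10 for the GAPDH ratio and 0 for actin. The 99th percentile of each array's log2 signals, a measure chosen after the data were seen, was called with 0 of the 10 (3 at an unadjusted p, permutation test) and with 13.9% of all genes. Once family means were subtracted it was called with 5 of the 10. These were GAPDH (r = 0.830), PGAM2 (0.738), ENO3 (0.670), ALDOA (0.612) and LDHA (0.609). The share of all genes was not counted for that test. The part of this measure in the correlations between the enzymes was not tested.

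Some markers of other cells differed between the muscling groups, where 5.50% of all genes were called lower in high muscling. Of 6 fibroblast markers 4 were called lower in high muscling (limma). They were the collagens COL1A1 (-0.83, adjusted p = 0.0343), COL1A2 (-0.78, 0.0278) and COL3A1 (-1.08, 0.0251) and decorin, DCN (-0.37, 0.0499, close to the threshold). Of the uncalled fibroblast markers, LUM lay lower in high muscling (-0.52, limma, adjusted p = 0.0666). PDGFRA lay higher, with an interval that included 0 (0.30, -0.48 to 1.07). COL1A1 also differed between sires of a muscling group (adjusted p = 0.00785). The summed signal of the list ran from 4745 to 11650 in high and from 7376 to 21951 in low muscling. The macrophage gene AIF1 (-0.95, adjusted p = 0.0156) was the 1 of 5 detected leukocyte markers called. Of 6 smooth muscle markers 2 were called lower, TAGLN (-0.48, adjusted p = 0.0135) and MYLK (-0.44, 0.0133). The rest of that list was not called and went both ways. CNN1 (-0.53) and ACTA2 (-0.20) lay lower in high muscling, and MYH11 (0.07) and SMTN (0.11) lay higher. As for all detected genes, none of these markers was called with the spikes regressed out or with sire means as samples. Summed leukocyte signals were 654 to 1262 and 673 to 2151, and smooth muscle signals 4849 to 8036 and 5486 to 9960. None of the 6 detected adipocyte markers was called at an unadjusted or adjusted p under 0.05 (limma), and 0 of 6 endothelial markers passed adjustment, with 2 at an unadjusted p. Of the 50 correlations of leukocyte markers with the enzymes 15 were called, all negative, against 4.05% of gene comparisons. AIF1, chosen after its values were seen, went against GPI (r = -0.622, rho = -0.647), TPI1 (-0.592), LDHA (-0.565), PKM (-0.506) and GAPDH (-0.497). With sire means removed its calls with GPI (-0.609), TPI1 (-0.501) and LDHA (-0.513) were made again, and those with PKM (-0.212) and GAPDH (-0.379) were not. Of the 60 correlations of adipocyte genes with the enzymes 15 were called, all positive, against 2.97% of gene comparisons, among them those of GPI with SCD (r = 0.792, rho = 0.639) and FASN (r = 0.774, rho = 0.672), enzymes of fatty acid synthesis that muscle fibres also make. With sire means removed these were 0.803 and 0.792. ADIPOQ, made by fat cells, was called with GPI alone (r = 0.449, rho = 0.439). Summed adipocyte signals ran from 926 to 7261 in high and from 942 to 11258 in low muscling. The part of these markers in the values of the enzymes was not tested.

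**Figure D5:**
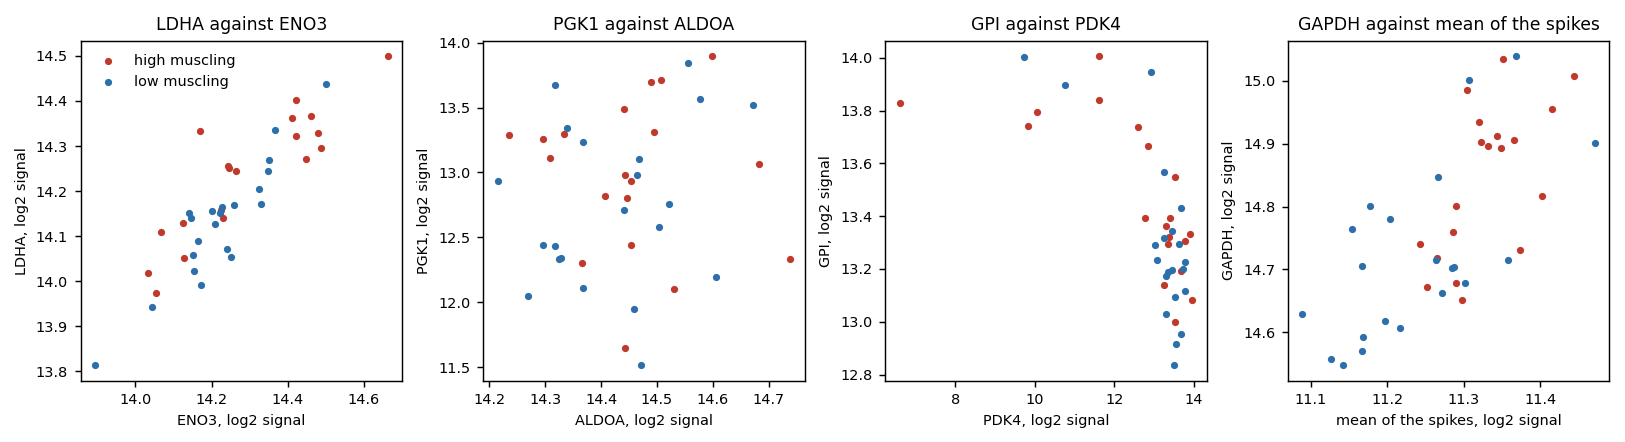
Log2 signals of 4 pairs of measures in the 40 animals, red for high and blue for low muscling: LDHA against ENO3 (r = 0.89), PGK1 against ALDOA (r = 0.11), GPI against PDK4 (r = -0.69) and GAPDH against the mean of the hybridisation spikes (r = 0.70). The first pair lies along a line, the second shows no visible trend, and the low PDK4 signals go with high GPI signals.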

How the data were processed

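RNA of longissimus dorsi muscle from 40 sheep was hybridised to the GeneChip Bovine Genome array, 1 array per animal. The authors deposited MAS5 signal intensities, linear, scaled so that the mean of each array with 2% trimmed at each end is 200; the MAS5 version is not given in the sources used here. No normalization was added, and log2 was taken. Each gene was represented by its probe set with the highest mean, among 13292 probe sets with 1 symbol in the platform annotation (86 had several, 10638 none). Genes with a mean of at least 61.8, the median over 24016 probe sets other than controls, were detected. The muscling groups were set against each other in limma 3.58.1 (R 4.3.3) with sire as a random block (correlation 0.135), and sires within groups by an F test on 4 contrasts. Correlations were computed in Python 3.11.15 with numpy 2.4.6. Scripts were tested on simulated data. The alternatives were other normalizations, a floor at the 20th percentile, no filter or block, all probe sets, sire means as samples and each family left out. The members and gene lists were chosen with earlier results of these data known. Named genes are the members, detected isozymes, other pathway genes called in a comparison or, failing those, the 2 in each list whose p was smallest, plus the 5 genes most like the members. PDK4, GPD1 as a correlate, HIF1A, PFKP as a correlate and the markers AIF1, TPM3, SCD, FASN, ADIPOQ, COL1A1, COL1A2, COL3A1, DCN, TAGLN and MYLK were named after their values were seen. LUM, PDGFRA, CNN1, ACTA2, MYH11 and SMTN were named likewise, to complete their lists. The labels name separate animals and give no batch.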

Additional observations from a re-analysis of the deposited data

Results flagged for a closer look

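Within families of 4 to 8 animals, 4 of 60 combinations of gene and family had an animal set apart from its half-sibs by a gap that was large against the range of the family, and chance gives about 1 in 20, or 3. The GPI signal of progeny 65 of sire 16 was 15783.1, with the next at 11041.1. The PFKM signal of progeny 11 of sire 5 was 6942.4, the lowest of all animals, with the next of its family at 8916.2. The TPI1 signal of progeny 71 of sire 17 was 16072.3, with the next at 11200.8. The GAPDH signal of progeny 32 of sire 5 was 33668, the highest of all animals, with the next of its family at 26895. The 99th percentile of the array's log2 signals was 13.11 for progeny 65, the highest of all arrays, and 13.09 for progeny 32. It was 12.97 for progeny 11 and 12.90 for progeny 71. The part of array brightness in these gaps was not tested.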

How the results depend on the processing

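Of the 10 enzymes, 0 were called between high and low muscling in the values as reported, 1 after quantile normalization (PFKM), 2 without the sire block (PFKM, 0.18, adjusted p = 0.0317, and PKM, 0.38, adjusted p = 0.0263), and 0 to 1 with each family left out. Between sires, 0 were called, 2 after quantile normalization and 0 to 1 with each family left out. The median correlation of the 45 pairs, 0.521, was 0.431 after quantile normalization, 0.425 with the spikes regressed out, 0.355 with the mean over all probe sets and 0.451 in high muscling alone, and 0.436 to 0.555 with each family left out. Among 140 differences of single enzymes under alternatives, 129 kept their direction and side of the threshold, 5 passed it and 6 reversed. The difference of ALDOA was -0.0249 after median centring, -0.0300 with the spikes regressed out and -0.0210 (sire 2) to 0.0664 (sire 11) with each family left out. Those of PGK1 and ENO3 were -0.0285 and -0.0078 with the spikes regressed out, and that of LDHA was -0.0346 with the mean over all probe sets. The cause was not tested. The spikes differed between the groups, and their slope was fitted without a group term. The fit with the spikes regressed out can therefore also take out part of a group difference. Over all detected genes the number called, 495, was 0 with the spikes regressed out or with sire means as samples, 1586 without the block, 23 without the progeny of sire 5, 29 without sire 16 and 1221 without sire 17, so the shares set beside the counts depend on these families. With 3 sire means against 3, an exact permutation test cannot go below p = 0.1. No paired analysis was possible because progeny numbers are not shared between the groups.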
